A study of Citrus sinensis with 6 samples.

Results

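Transcripts were assembled in the peel of sweet orange fruit (Citrus sinensis) at 1924 loci that carry no gene name and lie outside the chloroplast genome, out of 33080 loci in the tables. A locus was taken when its gene name is blank and all of its transcripts are assembled rather than reference models. Its value is the summed FPKM of its transcripts, that is, of mapped fragments scaled to transcript length and library size. The choice used no measured level. The other loci are 29312 nuclear loci with at least 1 reference transcript, 1707 assembled loci that bear the name of a reference gene, and 137 loci of the chloroplast genome, of which 0 meet the rule on names.

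The RNA came from excised albedo, the white inner layer of the peel, 3 days after inoculation. The antagonist yeast Rhodotorula mucilaginosa was given together with salicylic acid (SA, a hormone of plant immunity) at 0.2 mM in 3 libraries, the SA libraries, and without it in 3 others, the yeast libraries. All 6 libraries therefore carry the yeast, and untreated fruit was not analysed here. The labels do not say that the libraries are from separate fruit, and p-values then measure only how far these samples scatter, which may be technical.

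When reads are assembled against a genome, clusters of reads that fall outside every known gene become loci of their own. They can be long noncoding RNAs, which are often spliced and expressed at low levels, genes that the annotation missed, transposon transcripts, or pieces of untranslated regions and pre-mRNA. A spliced read reveals the strand of an intron, whereas an unspliced read shows its strand only if the library kit kept it. Genome assemblies also hold unplaced scaffolds, short sequences without a position on a chromosome, which are often repetitive or collapsed copies.

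Most of the loci were short and unspliced. A single exon made up 1633 loci, or 84.9%, against 15.9% of the reference coding loci and 29.9% of the reference noncoding loci. Of the 291 loci with more exons, 245 had 2, 26 had 3 and 20 had 4 or more. The longest transcript of a locus had a median of 518 bases with quartiles of 328.5 and 806, close to the 512 bases of reference noncoding loci and below the 1632 bases of reference coding loci. The spliced loci were longer, with a median of 642 bases. A strand was given for 618 loci, 343 plus and 275 minus. All 1306 loci without a strand had 1 exon, while each of the 291 spliced loci had a strand. A strand was also given for 327 single-exon loci, on a basis that the sources used here do not state. In 1858 loci there was 1 transcript, and no locus held more than 7.

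Spliced and stranded loci had higher median levels than the unstranded ones. The median of the mean FPKM over the 6 libraries was 0.919 in single-exon loci without a strand, 2.05 in single-exon loci with a strand and 2.03 in spliced loci. A mean of at least 1 FPKM was reached by 47.0%, 70.3% and 78.7% of the 3 classes. Over all 1924 loci the median was 1.15 FPKM with quartiles of 0.645 and 3.12. A mean of at least 10 FPKM was reached by 187 loci and of at least 100 FPKM by 23, of which 16 were single-exon loci with a strand.

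**Figure D1:**
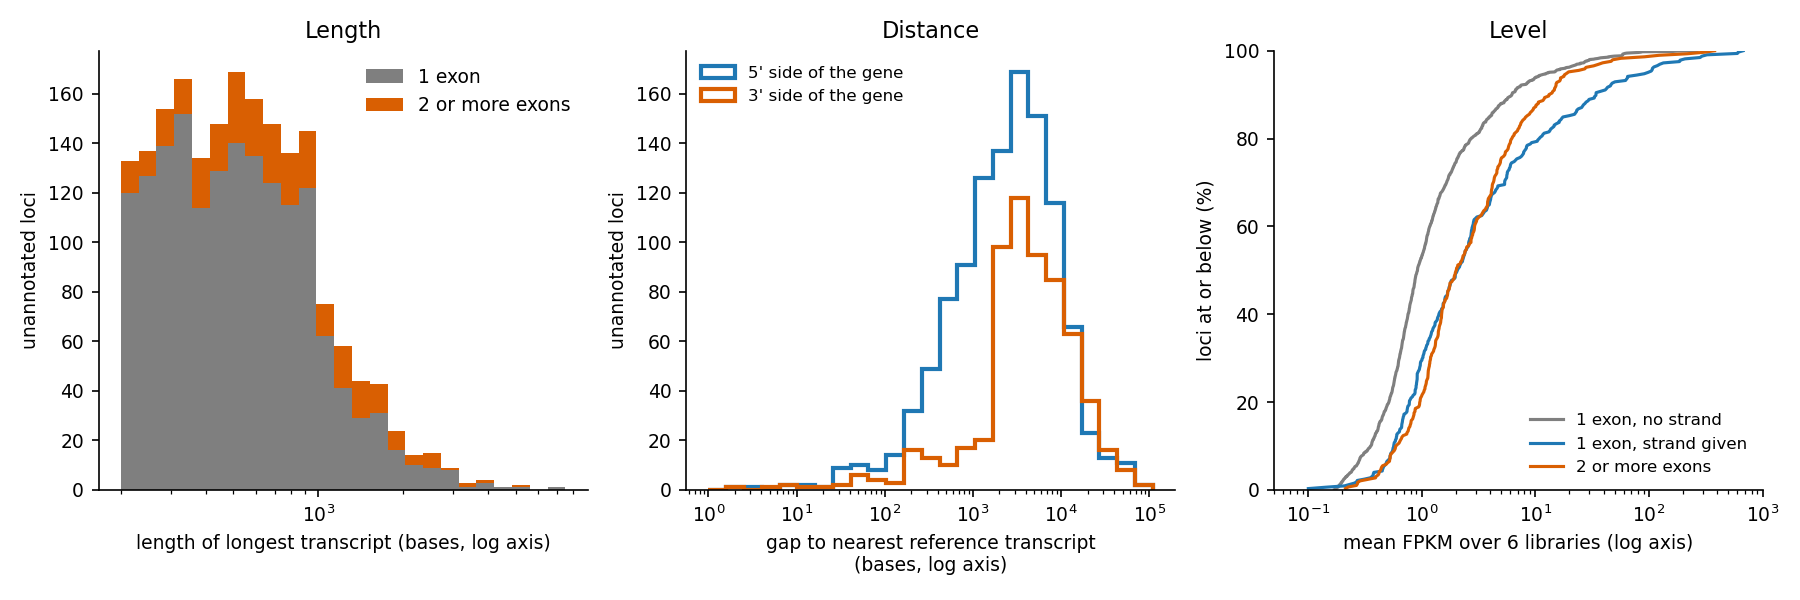
Left, number of loci by length of the longest transcript in bases (log axis), stacked by exon number. Middle, number of loci by gap in bases to the nearest reference transcript (log axis), split by the side of that transcript. Right, cumulative percent of loci by mean FPKM over 6 libraries (log axis). Single-exon loci without a strand lie to the left of the other classes, with a median of 0.919 FPKM against 2.05 and 2.03.

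The loci were placed on unplaced scaffolds more often than reference loci were. Of the 1924, 1262 lie on the 9 chromosomes and 662, or 34.4%, on scaffolds, against 19.5% of the reference loci. Per 100 reference loci, the chromosomes held between 4.15 and 6.45 unannotated loci. In 195 cases the sequence has no reference transcript at all, and on 187 of the 946 scaffolds with any locus every locus is an unannotated one. The first base of the sequence was the start of 64 loci, all of them on scaffolds, so these transcripts reach the edge of the assembly.

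None of the 1729 loci that share a sequence with a reference transcript overlaps one, though the rule is on names only. The span of a whole locus that holds a reference transcript is overlapped by 43 of the 1924. The median gap to the nearest reference transcript was 3213 bases, from 2 to 101664, with 362 loci within 1000 bases and 588 at 5000 bases or more. Of the nearest genes, 1029 are protein coding and 115 are lncRNA genes in the RefSeq gene table, while 483 had no entry there. Some loci were closely spaced, as 398 form 178 groups in which neighbours are within 5000 bases of each other, while 1526 stand alone. Whether this spacing differs from that of reference loci was not tested.

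The loci lay on the 5′ side of the nearest gene in 1111 cases, or 64.3%, and among those less than 1000 bases away in 285 of 362. This side ratio depends on how the tables name loci. The 736 assembled loci that bear a gene's name without overlapping a reference transcript are all less than 2000 bases away, at most 1991 bases, and 660 of them, or 89.7%, are on the 3′ side. Taking both kinds together, 548 loci within 2000 bases are on the 5′ side and 759 on the 3′ side. From 2000 bases outward, where only loci without a name occur, 639 of 1158, or 55.2%, are on the 5′ side. Among loci with a strand on the 5′ side, 205 share the strand of the gene and 124 have the opposite one, and on the 3′ side the counts are 122 and 127. These counts include single-exon loci, whose strand was given on a basis not stated.

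The loci were detected in most libraries, at a median level below that of all reference loci together. In all 6 libraries 1422 loci, or 73.9%, were above 0, against 64.2% of reference loci, and 2 were listed at 0 in every library, against 21.1% of reference loci. An assembled locus exists only where reads were found, whereas a reference locus is listed without any. Within each library the median over all unannotated loci was 1.16 to 1.33 FPKM and that over all reference loci 1.35 to 1.61 FPKM. It was lower in 6 of 6 libraries, by 0.21 FPKM on average (exact paired permutation test, two-sided, p = 0.03125, the smallest 6 pairs allow). All 6 libraries list the same loci in the same tissue. This p therefore shows only that the order repeats, and the order depends on which reference loci are taken. Among loci with a mean of at least 1 FPKM the medians were 2.47 to 2.72 and 11.3 to 12.7 FPKM. Against single-exon reference loci, whose median was listed at 0 in each library, the order was the opposite (exact paired permutation test, two-sided, p = 0.03125). By the mean over the 6 libraries, the median was 1.15 FPKM in the unannotated loci, 0.120 in noncoding reference loci and 3.02 in coding ones. A mean of at least 1 FPKM was reached by 55.8%, 29.9% and 59.7% of these classes.

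The loci took up a small share of the RNA, and the groups overlapped in it. SA replicates 1 to 3 had 1.96%, 1.82% and 1.95% of the summed FPKM in these loci, and yeast replicates 1 to 3 had 2.11%, 1.85% and 1.86%. The group means were 1.91% ± 0.0762 and 1.94% ± 0.146 (SD, n = 3 each; exact permutation test, two-sided, p = 0.8, where 0.1 is the smallest possible). The difference turned, to 0.0538 and 0.0134 percentage points higher with salicylic acid, without yeast replicate 1 and without SA replicate 2. As a share of covered bases, which weights loci by length, the values were lower, at 1.05% to 1.31% over the 6 libraries, with means of 1.14% and 1.19% (exact permutation test, two-sided, p = 0.6). The number of loci at 1 FPKM or more was 1134, 1155 and 1130 in the SA libraries and 1155, 1088 and 1060 in the yeast libraries (exact permutation test, two-sided, p = 0.4). In bulk samples, fewer cells of a type and less RNA per cell cannot be told apart. The 5 loci of highest mean held between 17.2% and 22.4% of the FPKM of all 1924.

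As a measure of depth, a locus at 1 FPKM was covered 5.002, 5.24 and 4.78 times per base in SA replicates 1 to 3, and 4.11, 4.87 and 4.60 times in yeast replicates 1 to 3. Correlations between libraries across these loci were 0.874 to 0.901 within groups and 0.860 to 0.896 between groups. Loci are not independent replicates, so these values describe the libraries. Yeast replicate 1 had the highest value in 251 of the 1073 loci tested, more than any other library. Genes of green tissue were low, with the photosystem I genes PSAE at 2.67 to 7.38 FPKM and PSADB at 0.632 to 2.98 FPKM, and chloroplast rbcL at 0.949 to 2.28 FPKM. CHLASE1, a chlorophyllase gene that breaks down chlorophyll, was at 12.4 to 21.1 FPKM.

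The highest of all the unannotated loci is MSTRG.17955, a single-exon plus-strand locus of 474 bases at NC_023054.1:13561302-13561775. It stood at 667, 430 and 515 FPKM in the SA libraries and at 987, 788 and 659 FPKM in the yeast libraries. The groups overlapped by 1 library, yeast replicate 3. It lies inside the span of MSTRG.17954, a minus-strand locus with 2 exons at NC_023054.1:13561250-13565706. That locus had 104, 66.8 and 99.9 FPKM in the SA libraries and 185, 143 and 140 FPKM in the yeast libraries. All 3 SA libraries were below all 3 yeast libraries, a log2 difference of −0.80 ± 0.19 (SE), but the limma test left it at an adjusted p of 0.79.

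These loci are part of a run of 4 unannotated loci in which every mean was lower with salicylic acid. Before them on the chromosome, MSTRG.17952, a plus-strand locus with 2 exons at NC_023054.1:13557561-13558289, was at 201, 143 and 169 FPKM in the SA libraries and 289, 308 and 192 FPKM in the yeast libraries. MSTRG.17953, next to it and picked here for its place, was at 16.6, 8.26 and 9.43 against 18.0, 10.4 and 15.3 FPKM. The groups of both overlapped, and the log2 differences of −0.60 for MSTRG.17952, −0.35 for MSTRG.17953 and −0.60 for MSTRG.17955 did not pass. The nearest reference gene, LOC102613123, protein coding and upstream on the plus strand, was in the other direction, at 14.2, 14.5 and 5.82 FPKM in the SA libraries and 4.97, 5.54 and 4.89 FPKM in the yeast libraries. It did not pass either, with a limma adjusted p of 0.92. An assembled locus that bears the name of this gene, MSTRG.17951, lies between it and the run. The groups of MSTRG.17951 overlapped, at 5.56, 4.94 and 5.28 FPKM in the SA libraries and 5.82, 3.72 and 4.46 FPKM in the yeast libraries. The overlap of MSTRG.17954 and MSTRG.17955 on opposite strands matters for both, because no source used here says that reads were counted by strand, and without that their reads cannot be told apart.

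The 5 next highest loci were spread over chromosomes and scaffolds. MSTRG.20701, a minus-strand single-exon locus at NW_006257120.1:408882-409613, was at 610, 626 and 771 FPKM in the SA libraries and 754, 449 and 458 FPKM in the yeast libraries. On the same scaffold MSTRG.20703, named here only as its neighbour, was at 303, 213 and 342 against 441, 169 and 223 FPKM. In both, yeast replicate 1 was far above the other libraries of its group. The same held for MSTRG.14751 (NC_023052.1:25322862-25323789), which overlaps another locus, at 352, 354 and 362 FPKM in the SA libraries and 467, 200 and 211 FPKM in the yeast libraries. For none of the 3 did the groups separate.

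MSTRG.22292 covers bases 1 to 408 of a scaffold that has no reference transcript (NW_006261750.1:1-408). It was at 603, 414 and 612 FPKM in the SA libraries and 843, 498 and 630 FPKM in the yeast libraries, so it was abundant in every library. The highest spliced locus was MSTRG.20885, with 3 exons on the minus strand (NW_006257130.1:345981-346975), at 420, 278 and 330 FPKM in the SA libraries and 343, 405 and 493 FPKM in the yeast libraries. Its groups overlapped as well, and its span overlaps that of 2 other loci.

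The sixth by level is MSTRG.4544, a minus-strand locus with 2 exons at NC_023048.1:767581-768215. It was at 565, 289 and 404 FPKM in the SA libraries and 127, 213 and 232 FPKM in the yeast libraries. Every SA library was above every yeast library, and the ratio of the means was 2.20. The log2 difference was 1.13 ± 0.29 (SE), which limma left at an adjusted p of 0.79.

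Its neighbours had the same order of the group means. The lncRNA gene LOC102619854, 2399 bases away on the same strand and also with 2 exons, was at 476, 213 and 487 FPKM in the SA libraries and 108, 188 and 217 FPKM in the yeast libraries. Here 1 yeast library exceeded the lowest SA library. MSTRG.4546, with 2 exons on the minus strand and 7 transcripts, lies 4091 bases beyond that gene (NC_023048.1:775247-781734). It was at 25.4, 17.5 and 51.0 FPKM in the SA libraries and 3.02, 7.11 and 13.9 FPKM in the yeast libraries, a ratio of 3.90 and a log2 difference of 1.90 ± 0.49 (SE; limma adjusted p = 0.79). All 3 had 2 exons and stood on the same strand in a row. Whether they share sequence, and with it reads, was not tested, since no genome of this build was used here.

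The SA libraries were compared with the yeast libraries over 17704 loci with a mean of at least 1 FPKM, of which 1073 are unannotated loci and the other 851 unannotated loci fell below that mean. In limma's test on log2(FPKM + 1) with Benjamini-Hochberg adjustment over all loci tested, 1 unannotated locus passed and was lower with salicylic acid, and 0 were higher. The background is 0.0113% of all loci tested, that is 2 loci, both lower, and the second is MSTRG.21238, an assembled locus that bears a gene's name. At an unadjusted p under 0.05 there were 116 unannotated loci, 62 higher and 54 lower, against 2.94% and 2.19% of all loci tested.

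The locus that passed is MSTRG.22149, a single exon of 829 bases without a strand, which starts at the first base of its scaffold (NW_006258927.1:1-829). No reference transcript lies on that scaffold, and no other locus overlaps it. It is listed at 0 in all 3 SA libraries. In the yeast libraries it stood at 11.5, 14.4 and 11.8 FPKM (limma adjusted p = 0.000130). Without a limit on level, 5 unannotated loci are listed at 0 in all SA libraries and above 0 in all yeast libraries, and 4 the other way round. MSTRG.22149 is the 1 among them above 1 FPKM throughout the other group. The share of all loci with such a pattern was not counted, so the 5 and the 4 have no background to be read against. A listed 0 can be a failed estimate in files without counts, and no fold can be given against it. The 3 equal zeros add no scatter to the test, and its p-value takes no account of failed estimates.

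Unannotated loci were listed at 0 in some libraries beside clear values in others far more often than reference loci. At least 5 FPKM in 1 library or more was reached by 465 of them, and 39 of these, or 8.39%, are listed at 0 in another library. Among reference loci the count was 11 of 12119, or 0.0908%, and among assembled loci that bear a gene's name 30 of 458, or 6.55%. The share was 11.7% on scaffolds and 22.7% on sequences without a reference transcript. The zeros of these 39 loci fell on every library, 20, 23 and 21 in SA replicates 1 to 3 and 18, 18 and 13 in yeast replicates 1 to 3.

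Several patterns of these zeros stand beside that of the locus that passed, all picked after the values were seen. MSTRG.16521 has a 0 in each SA library and in yeast replicate 2, but stood at 19.6 and 20.6 FPKM in yeast replicates 1 and 3. MSTRG.22111 had 15.2 FPKM in SA replicate 1 and 19.1 FPKM in yeast replicate 2, and is listed at 0 in the other 4 libraries. MSTRG.17221 had 13.9 and 15.9 FPKM in SA replicates 1 and 2 and 11.5 and 10.5 FPKM in yeast replicates 1 and 3, with a 0 in each group. Each of these loci thus had both a listed 0 and a clear value among the libraries of at least 1 group.

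**Figure D2:**
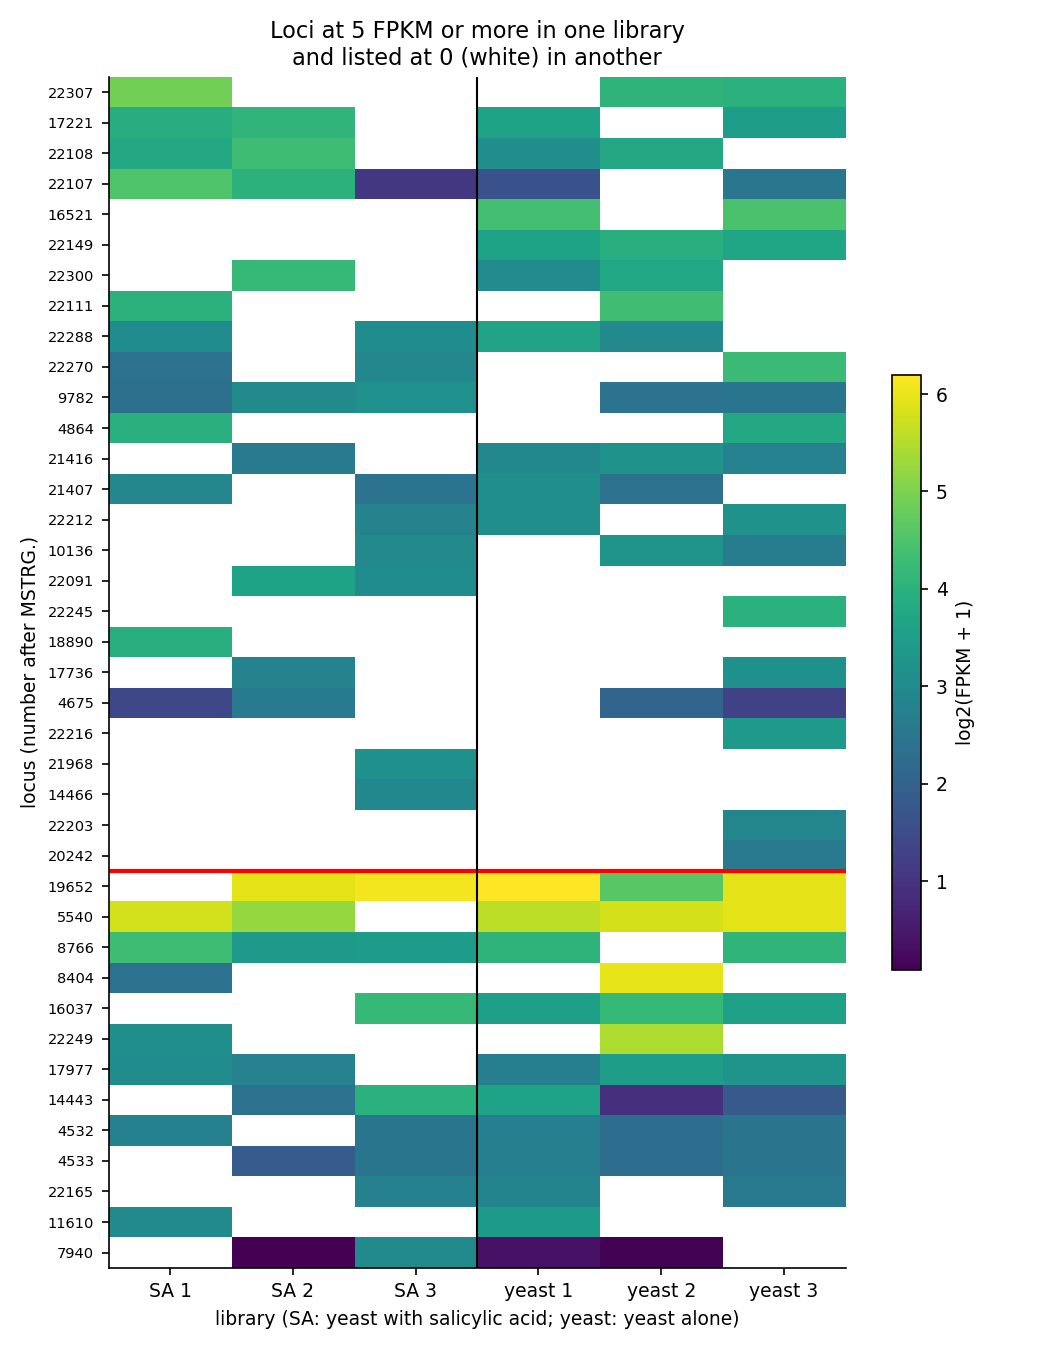
Values of the 39 unannotated loci at 5 FPKM or more in 1 library and listed at 0 in another, as log2(FPKM + 1) by color, with 0 in white. Columns are the 6 libraries and rows the loci, those below the red line overlapping another locus. White cells occur in every library, and MSTRG.22149 is the 1 row with white in all 3 SA libraries and color in all 3 others.

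In 13 of the 39 loci another locus overlaps, and 26, MSTRG.22149 among them, overlap none. The loci with overlap given here were picked after their values were seen. MSTRG.19652, minus strand, has the very interval of MSTRG.19651, plus strand. The minus copy was at 0, 61.0 and 67.7 FPKM in the SA libraries and 72.5, 23.5 and 60.3 FPKM in the yeast libraries. The plus copy was at 65.9, 60.7 and 67.5 FPKM and at 72.2, 47.0 and 60.1 FPKM. Where the minus copy is listed at 0, the plus copy thus kept its level, and in the other libraries except yeast replicate 2 the copies had values within 1% of each other.

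MSTRG.16037 and MSTRG.16036 form another such pair. The former was at 0, 0 and 17.0 FPKM in the SA libraries and 10.5, 17.1 and 10.97 FPKM in the yeast libraries, while the latter was at 8.77, 17.6 and 17.0 and at 10.5, 17.1 and 11.03 FPKM. MSTRG.8404, among the 3 most variable loci at 10 FPKM or more, was at 62.3 FPKM in yeast replicate 2, at 4.21 FPKM in SA replicate 1 and at 0 elsewhere. MSTRG.8403, on the opposite strand over nearly the same bases, stood between 54.7 and 71.5 FPKM in all 6 libraries.

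A different pattern was seen at MSTRG.5540, a plus-strand locus of 2228 bases inside the span of the locus of LOC102628314. It was at 54.2, 36.8 and 0 FPKM in the SA libraries and 47.1, 55.0 and 61.1 FPKM in the yeast libraries. The overlapping locus, MSTRG.5539, was at 4.66, 5.05 and 35.7 FPKM and at 6.24, 5.01 and 4.49 FPKM. The 1 library with a 0 at the former is the 1 library with a high value at the latter.

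In all, 132 of the 1924 loci overlap another locus, and 26 have exactly the same interval as another, in each case on the opposite strand. These include 11 pairs in which both are unannotated. Over the 66 combinations of pair and library, both values were above 0 and within 1% of each other in 27, exactly 1 of the pair was listed at 0 in 22, and both were at 0 in 0. Of loci that overlap no other locus, 26 of 400 at 5 FPKM or more are also listed at 0 in some library, or 6.50%, against 13 of 65 of those that overlap one.

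Values in a single library are a further form of this. In 73 loci a single library was above 0, and in 10 loci with over 5 FPKM in their highest library that library held more than 80% of the locus's FPKM. The highest of those without an overlapping locus are MSTRG.22245, at 14.8 FPKM in yeast replicate 3, and MSTRG.18890, at 14.2 FPKM in SA replicate 1, each listed at 0 in the other 5 libraries and picked for its values.

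Below the threshold, the loci of smallest p that were higher with salicylic acid had modest and separated groups. MSTRG.13902 (NC_023052.1:9441000-9441485) was at 3.74, 2.87 and 4.22 FPKM in the SA libraries and 1.19, 1.37 and 0.861 FPKM in the yeast libraries. MSTRG.9996, a minus-strand locus of 418 bases at NC_023050.1:24370122-24370539, was at 15.7, 15.0 and 23.3 FPKM against 7.45, 7.72 and 2.68 FPKM. In both, every SA library was above every yeast library, the means were 3.17 and 3.03 times as high, and the log2 differences were 1.10 ± 0.20 and 1.53 ± 0.33 (SE). Limma left them at adjusted p of 0.52 and 0.76.

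Farther along the chromosome of MSTRG.9996, MSTRG.9999 (NC_023050.1:24417186-24417847) was at 77.3, 86.1 and 63.6 FPKM in the SA libraries and 43.2, 44.9 and 52.3 FPKM in the yeast libraries. MSTRG.10273, a minus-strand locus with 2 exons that overlaps another locus, was at 9.30, 10.5 and 11.4 against 6.66, 4.95 and 5.54 FPKM. MSTRG.22306, at bases 1 to 230 of a scaffold without a reference transcript, was at 60.6, 50.4 and 52.5 against 30.5, 30.0 and 42.0 FPKM. The groups of all 3 were apart, with log2 differences of 0.68, 0.77 and 0.67, and none passed the limma test, with adjusted p of 0.78, 0.75 and 0.79.

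On the lower side, the smallest p after MSTRG.22149 and MSTRG.17954 were at loci of low level. MSTRG.14985 was at 2.12, 1.65 and 1.64 FPKM in the SA libraries and 3.44, 3.75 and 3.33 FPKM in the yeast libraries, 1617 bases from the lncRNA gene LOC102613299. MSTRG.20648, on the 5′ side of the protein-coding gene LOC102626176 at a gap of 514 bases and on its strand, was at 0.898, 1.09 and 0.701 against 2.18, 2.89 and 1.84 FPKM. MSTRG.9719 was at 1.13, 0.300 and 0.242 against 4.07, 1.60 and 2.13 FPKM. The groups of each were apart, but limma left all 3 at an adjusted p of 0.79.

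**Figure D3:**
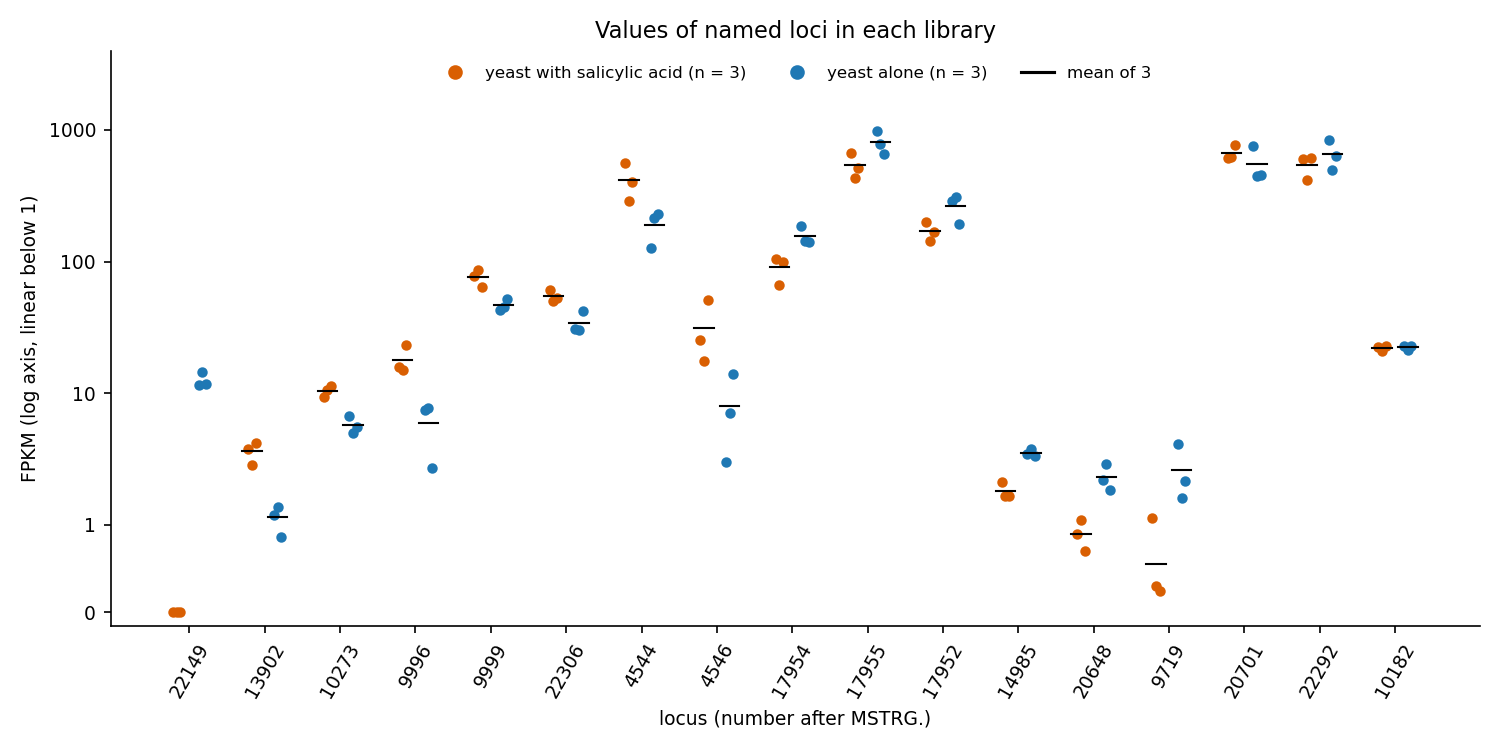
FPKM in each library (log axis, linear below 1) for 17 named loci, SA libraries in orange and yeast libraries in blue, n = 3 each, with black bars for group means except at MSTRG.22149. MSTRG.22149 is at 0 in all 3 orange points and between 11.5 and 14.4 FPKM in blue, and MSTRG.10182 is nearly level across all 6.

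Over all 1073 unannotated loci tested, 551 differences were positive and 522 negative, and they were wider than those of reference loci. The median log2 difference was 0.01 in the unannotated loci and 0.02 in all loci tested, and the median size without sign was 0.22 and 0.13. In the assembled loci that bear a gene's name that size was 0.23, so the width is not particular to loci without a name. An unadjusted p under 0.05 was found in 10.8% of the unannotated loci, against 5.12% of all loci tested and 4.51% of reference loci. Of the assembled loci that bear a gene's name it was 8.67%. When a variance trend was fitted to the unannotated loci by themselves, an alternative added after the data were seen, the share was 82 of 1073, or 7.64%, below the 97 of 992, or 9.78%, of the assembled loci that bear a gene's name in that fit. The order of these 2 classes thus depends on the variance model. Groups without overlap occurred in 136 loci, or 12.7%, 71 above and 65 below, against a background of 9.92% of all loci tested, 5.42% above and 4.51% below.

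**Figure D4:**
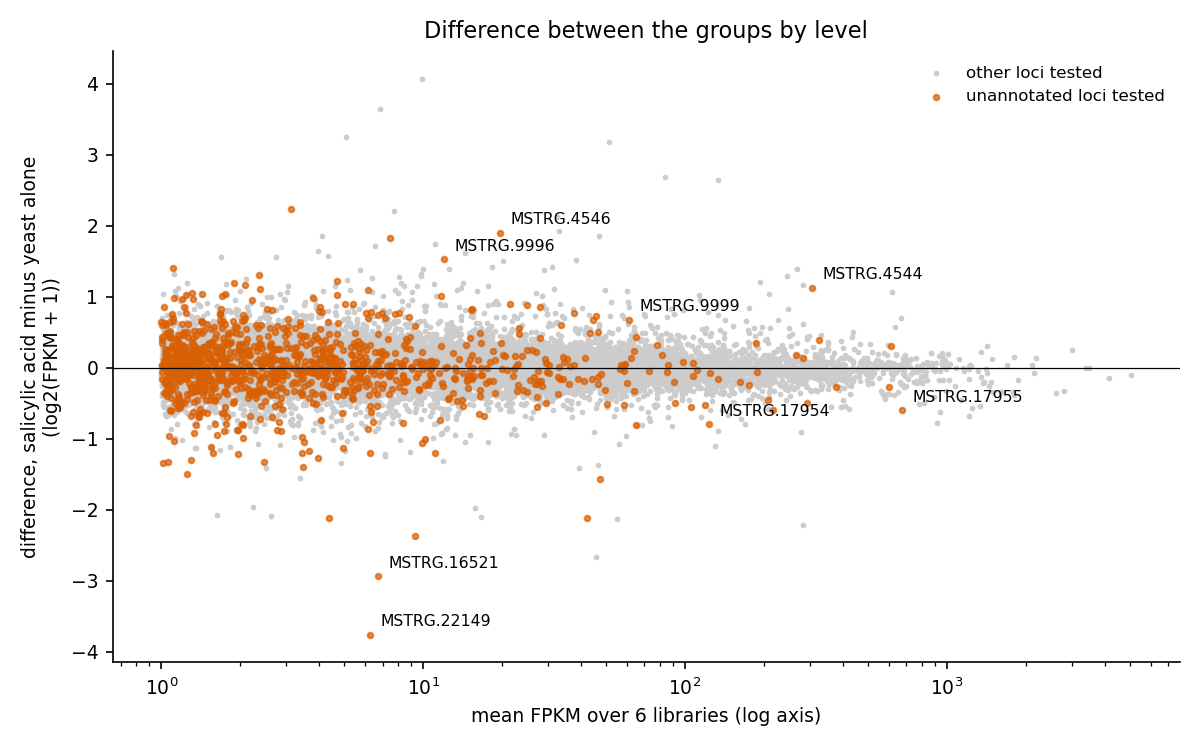
Difference between the groups on the log2(FPKM + 1) scale against the mean FPKM over 6 libraries (log axis) for all 17704 loci tested, with the 1073 unannotated loci in orange. MSTRG.22149 and MSTRG.16521 lie lowest among the unannotated loci, and the median of the 1073 is 0.01.

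The wider differences went with a wider spread between libraries at the same level. For loci of 1 to 2 FPKM the median coefficient of variation over the 6 libraries was 43.3% in the unannotated loci, 33.9% in noncoding reference loci and 30.4% in all reference loci. At 10 to 50 FPKM the values were 22.5%, 19.4% and 14.0%, and at 50 FPKM or more 23.4%, 19.2% and 12.5%. This coefficient also takes in the difference between the groups. Within groups, the median SD on the log2 scale was 0.34, 0.30 and 0.25 at 1 to 2 FPKM, in the same order. At 10 to 50 FPKM it was 0.31, 0.27 and 0.19. The unannotated loci were the most variable of these 3 classes in each of the 5 level ranges. Assembled loci that bear a gene's name are not in this comparison. Over all levels tested, their median SE of the log2 difference was 0.253, against 0.246 in the unannotated loci, so wide spread is not particular to the latter. The unannotated loci are also shorter than coding loci, and shorter loci rest on fewer reads at the same FPKM. The part of length in the spread was not tested.

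**Figure D5:**
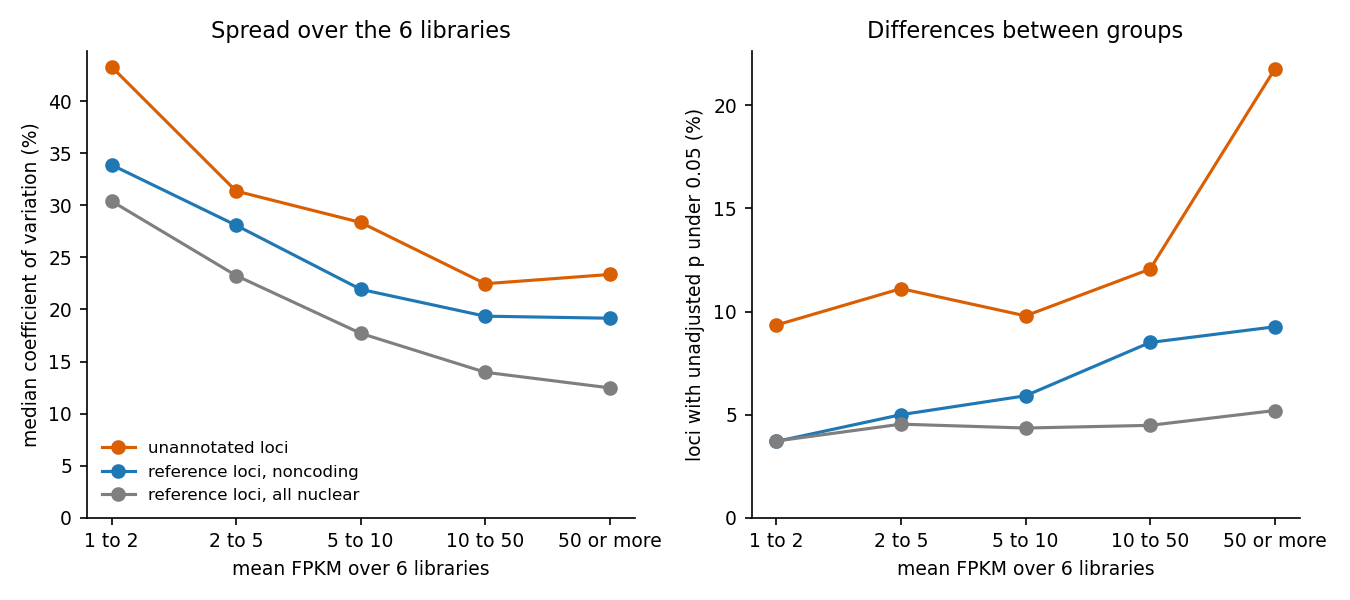
Left, median coefficient of variation in percent over the 6 libraries by range of mean FPKM. Right, percent of loci with an unadjusted limma p under 0.05 in the same ranges. The unannotated loci in orange are above both classes of reference loci in all 5 ranges, with 43.3% against 30.4% for all reference loci in the lowest range on the left.

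Among loci at 10 FPKM or more, the steadiest was MSTRG.10182, a plus-strand single-exon locus of 2445 bases (NC_023050.1:26687611-26690055). It was at 22.6, 20.8 and 22.9 FPKM in the SA libraries and 22.8, 21.2 and 22.9 FPKM in the yeast libraries, a coefficient of variation of 4.26%. MSTRG.15014, with 2 exons, had 5.77% at a mean of 12.1 FPKM, and MSTRG.21143 had 6.52% at a mean of 98.35 FPKM. The most variable of that level, beside MSTRG.8404 and MSTRG.4546, was MSTRG.3774, a spliced locus 10 bases from the end of LOC112497266. It was at 26.9, 31.2 and 5.17 FPKM in the SA libraries and 7.26, 13.3 and 7.63 FPKM in the yeast libraries, so replicate 3 stood apart from the other 2 of its group.

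The loci with the most exons had means between 1.98 and 4.17 FPKM, above the median of all 1924. MSTRG.21797, with 8 exons on the minus strand of a scaffold (NW_006257281.1:2886-5332), was at 3.57, 5.87 and 2.82 FPKM in the SA libraries and 4.96, 3.25 and 4.52 FPKM in the yeast libraries. MSTRG.14040 and MSTRG.4101, with 6 exons each, had means of 2.03 and 1.98 FPKM. The longest transcript, 7181 bases in a single exon, was that of MSTRG.21921, which starts at base 1 of its scaffold and had a mean of 1.03 FPKM. MSTRG.8202, 4895 bases in 4 exons, and MSTRG.21276, 4523 bases in 1 exon, had means of 3.40 and 2.42 FPKM. The groups overlapped in all 6.

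Levels and differences of the loci went with those of their neighbours only weakly. In 491 cases both the locus and the locus of its nearest reference gene were tested. Across these pairs the Spearman correlation of levels was 0.07 and the Pearson correlation of the log2 differences 0.07, as descriptions, since pairs share libraries and some share a gene. The unannotated locus was the higher of the pair in 143 cases, or 29.1%. For pairs less than 1000 bases apart the Pearson correlation of the differences was 0.06, and from 5000 bases outward it was −0.10. At 1000 to 5000 bases, where MSTRG.4544 and MSTRG.4546 are both paired with the same lncRNA gene, it was 0.23, but the Spearman correlation of those differences was 0.08.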

How the data were processed

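Total RNA of 6 albedo libraries was sequenced by Illumina, per the labels' protocols. For aligner, assembler, genome build and strandedness nothing is given in the sources used here. Each deposited transcript table gives FPKM and coverage, a signal of mean reads per base, as computed by the authors per the file headers. A deposited gene table, whose unit is not given, was not used. Transcript FPKM were summed by locus, and gene biotypes were taken from RefSeq (assembly DVS_A1.0) by symbol only. Coordinates are those of the files. Loci with a mean of at least 1 FPKM entered limma 3.58.1 as log2(FPKM + 1) (R 4.3.3, trended variance, two-sided, Benjamini-Hochberg, threshold 0.05), a scale that understates changes of low loci. No replicate block was used. The test was also run on simulated data with normal scatter on the log2 scale, which did not model failed estimates listed at 0. Single values per library were compared by exact permutation tests in Python 3.11.15 with scipy 1.17.1.

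Loci were named by rule: those that passed, the 5 of smallest p in each direction, the 6 highest and the 3 highest spliced. The 3 with most exons and the 3 longest were taken among loci with a mean of at least 1 FPKM. The 3 of lowest and of highest coefficient of variation were taken among loci at 10 FPKM or more, which gave 29 in all. Other loci are named as chosen for place or values. The loci and lists were chosen with earlier results of these data known. Gaps were measured to the nearest reference transcript, and the coefficient of variation is the SD over the mean of 6 libraries.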

Additional observations from a re-analysis of the deposited data

How the results depend on the processing

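The count of 1 unannotated locus past the threshold held under a pseudocount of 0.1, with no filter or a mean of at least 5 FPKM, and under both rescalings. It also held under robust variance, library weights, gene names as features and a separate variance trend. Leaving out overlapping loci could not change the count, as MSTRG.22149 overlaps none and the fit was not redone. MSTRG.22149, at 0 in all 3 SA libraries, could not turn its direction by a pseudocount, a scaling or a left-out library. Its fitted size is set by the pseudocount, being measured against listed zeros, and is not a fold. Leaving out a library gave 1 to 2 loci, the added ones being MSTRG.22091, MSTRG.21416, MSTRG.16037 and MSTRG.16521 without SA replicates 1, 2 and 3 and yeast replicate 2, each listed at 0 in a remaining library. Over all loci the count of 2 became 5 with the pseudocount of 0.1, and 1 without a filter, with a mean of at least 5 FPKM and by gene name, and 1 to 5 without a library. The 116 loci at an unadjusted p under 0.05 became 186 without a filter and 41 at 5 FPKM, where more and fewer loci are tested, and 82 to 145 without a library. The share of summed FPKM turned to 0.00313 percentage points higher in the SA libraries without the 5 highest loci, and ranged from −0.0733 to 0.0538 without a library. The median FPKM was higher than that of reference loci by 1.23 against single-exon and by 1.06 against single-transcript reference loci. Of 451 values of named loci, 440 kept their direction and 11, in 5 loci, did not: without a library, MSTRG.21797 ranged from −0.31 to 0.11, MSTRG.14040 from −0.16 to 0.0934, MSTRG.8202 from −0.29 to 0.24, MSTRG.10182 from −0.0461 to 0.0298 and MSTRG.15014 from −0.0577 to 0.0468. Many of the 440 could not turn. The filters, robust variance, replicate block, gene names and separate variance trend leave the difference of an unannotated locus unchanged by construction. The labels do not say that equal replicate numbers pair the samples, and the correlations do not settle it. Over all loci, deviations of same-numbered libraries correlated at 0.124, 0.214 and −0.000660, and those of unlike number at −0.270 to 0.154. With the replicate block the counts were 1 unannotated locus and 2 loci past the threshold. At an unadjusted p under 0.05 there were then 155 unannotated loci, against 116 without the block. Depth limits loci near 1 FPKM, which were covered 4.11 to 5.24 times per base.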
